A study of Homo sapiens with 8 samples.

Results

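The HOPS and CORVET tethering complexes were followed through the mRNA levels of their 8 subunit genes, VPS11, VPS16, VPS18, VPS33A, VPS39, VPS41, VPS8 and TGFBRAP1, in SET-2 cells with and without CRISPR knockout of ZRSR2. The 8 genes were taken by symbol from a table of 25435 symbols, and 8 of 8 passed the filter on low counts that left 14898 genes for testing. The set was chosen by complex membership around VPS11, which was itself selected on its lower CPM in the knockout libraries of these data and on an annotated intron with a U12-type start. Values that compare knockout with control are therefore given for the 8 genes as a description, without p-values, and the counts of calls in it stand only beside their share over all genes.

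SET-2 is a human cell line from an essential thrombocythemia that had transformed to megakaryoblastic leukemia, and the series' title places the work in a neoplasm driven by mutant JAK2. All 8 bulk RNA-seq libraries came from this 1 line, transduced with a GFP-marked viral vector that carried a single guide RNA. The 4 knockout libraries carried ZRSR2 guide 1 or guide 2, and the 4 control libraries carried non-targeting guide 1 or guide 2, each guide once in experiment 1 and once in experiment 2. Biological replicate 1 was harvested on day 20 and biological replicate 2 on day 25 of transduction, and these are read here as experiments 1 and 2. Experiment and day thus cannot be told apart, no label says that a culture was a single clone, and p-values measure only the spread between these samples. Total counts ran from 31106042 to 71521173 a library, so that 1 count was worth 0.0143 to 0.0324 CPM (counts scaled by library size).

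HOPS and CORVET are large complexes that hold endosomal and lysosomal membranes together before they fuse. Both contain the same core of VPS11, VPS16, VPS18 and VPS33A. HOPS adds VPS39 and VPS41 and works at late endosomes and lysosomes, whereas CORVET adds VPS8 and TGFBRAP1 and works at early endosomes. Megakaryocytes build their storage granules through the same endosomal route, and the related pair VPS33B and VIPAS39 is needed for platelet alpha granules. ZRSR2 is a component of the minor spliceosome, the machinery that removes the rare U12-type introns, and it recognizes the end of such introns. U12-type introns are known by a long conserved start, ATATCCTT or GTATCCTT, and by a conserved branch site, TCCTTAAC, close to their end.

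Intron starts of VPS11 and of 4 partner genes are shown because the U12-type start of VPS11 was 1 reason for the choice of the genes. The deposited table gives symbols and no coordinates, and the submitters' processing notes name hg19, so coordinates and sequences here come from GENCODE 29 on GRCh38. Intron 1 of VPS11 (chr11:119068011-119069195, plus strand, 1185 bases, the first of 15 introns) starts exactly with ATATCCTT directly after the coding part of exon 1. In the next lines, the last 12 exon bases are in lower case, the first 8 intron bases are in capitals, and further intron bases follow, all 5′ to 3′ on the gene's strand.
VPS11 intron 1: tggtctttggagATATCCTTcgtttggagc
VPS11 intron 4: gagaacgtccagGTATGACCaaggcctcca
VPS11 intron 12: gcaggggaagctGTAAGAGTttggggaatt
VPS16 intron 12: agtctgctcaggGTTGGCCTggatggccgg
VPS16 intron 16: ctggccatcaagGTGTGGGTgcccagccct
VPS33A intron 6: gcattcagaacaGTAAGTACatgacatctg
VPS39 intron 3: aagattcagcagGTAAGCAGtgatggcagt
VPS8 intron 6: cctacagcaattGTAAGTATactttaactt

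The end of VPS11 intron 1 also carried the branch-like sequence TCCTTGAC, with 1 mismatch to the consensus, 10 bases before the intron's last base. It is shown in capitals, followed by the last intron bases, which end in AC, and by 7 bases of exon 2.
VPS11 intron 1, end: gaggcTCCTTGACtaccctgcacatatgga
This end lies at chr11:119069173-119069202 on GRCh38, and the printed start lies at chr11:119067999-119068028. Both could be read because an alternative VPS11 transcript places its first intron inside the first intron of the principal transcript. That shorter intron spans 970 bases and opens 192 bases into the longer one. A looser match to the branch site also lay near the end of VPS16 intron 16, whose start has 4 mismatches to the U12-type start. It reads TCCTTCTC, with 2 mismatches and 9 bases after it, and that intron ends in AG. The share of all introns with such a branch-like sequence was not computed.

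On GRCh38, the genes of the core lie at chr11:119067692-119081978 (VPS11, plus strand), chr20:2840703-2866732 (VPS16, plus), chr15:40894430-40903975 (VPS18, plus) and chr12:122229564-122266521 (VPS33A, minus). The HOPS-specific genes lie at chr15:42158701-42208316 (VPS39, minus) and chr7:38722963-38932394 (VPS41, minus). The CORVET-specific genes lie at chr3:184812143-185052614 (VPS8, plus) and chr2:105264391-105330034 (TGFBRAP1, minus). Their principal transcripts have from 5 exons in VPS18 to 48 in VPS8, and VPS11 has 16.

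Intron starts could be read only where another annotated transcript runs across them, which held for 23 of the 164 introns in the principal transcripts of the 8 genes. In VPS11, 5 starts were read, with 2 in VPS16, 2 in VPS33A, 7 in VPS39, 1 in VPS41 and 6 in VPS8. None of the 4 introns of VPS18 or the 11 introns of TGFBRAP1 could be read. VPS11 intron 1 was the 1 exact match, while the other 22 starts had at least 3 mismatches to the U12-type start, 21 of them with GT and 1 with GC as the first bases. Among 45624 readable introns of protein-coding transcripts, 0.39% had an exact U12-type start and 0.101% had ATATCCTT. The 141 unread introns of the 8 genes were not classified.

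**Figure D1:**
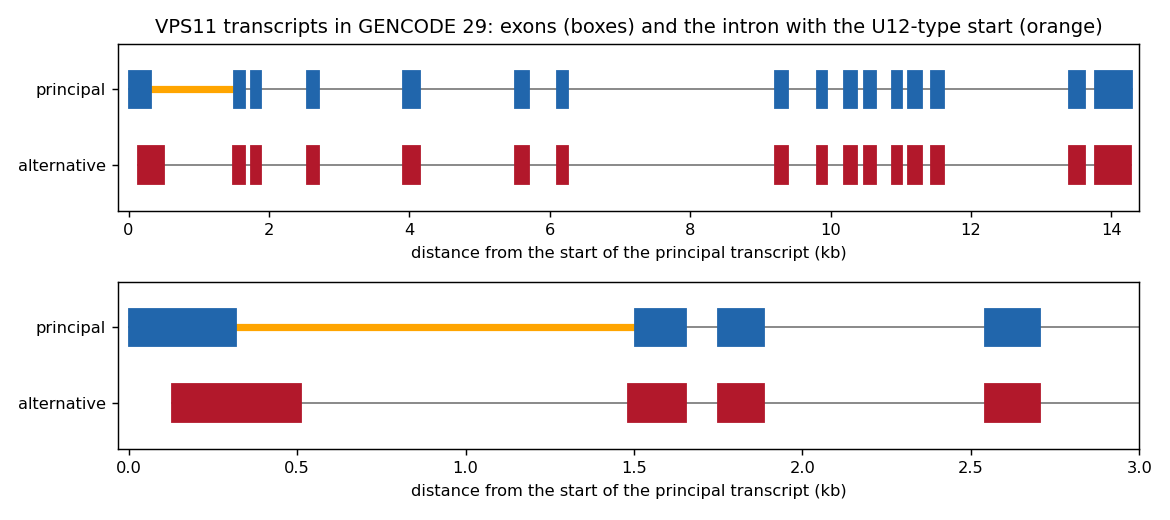
Exons (boxes) and introns (lines) of the principal and an alternative VPS11 transcript by distance from the start of the principal one in kb; the upper panel shows the whole gene and the lower panel its first 3 kb. The orange line is the 1185-base intron that starts with ATATCCTT, and the shorter first intron of the alternative transcript, 970 bases, lies within its span.

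The guides were checked first on ZRSR2 mRNA. ZRSR2 stood at 29.4 and 28.3 CPM with guide 1 and at 22.9 and 18.7 CPM with guide 2, in experiments 1 and 2 respectively. The non-targeting libraries held 37.9, 39.2, 39.7 and 41.1 CPM, so every knockout library was below every control and the labels held. A mutated transcript can still be counted, so these levels do not give the share of edited cells, which was not measured here. In bulk RNA, fewer expressing cells and less RNA per cell cannot be told apart.

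VPS11 and VPS16, both in the shared core, were lower in the ZRSR2 knockout libraries, and the other 6 subunits were near their control levels. VPS11 was 47.2 ± 4.78 CPM in the knockout and 62.8 ± 5.62 CPM in the controls (SD, n = 4 each), or 75.3% of control. VPS16 was 31.5 ± 3.34 CPM against 40.5 ± 3.83 CPM, or 77.8% of control. edgeR's quasi-likelihood test at an adjusted p of 0.05 called 0 of the 8 genes in this comparison, against 0% of all 14898 genes. At an unadjusted p of 0.05 it took in 2 of 8, VPS11 and VPS16, against 0.597% of all genes. DESeq2 called 0 of 8 against 0.0268% of all genes, and with the experiment as a block it called 1 of 8, VPS11, against 0.208%. Because this contrast proposed the genes, nothing is read from these counts.

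VPS11 encodes a scaffold subunit with a RING domain that sits at the centre of both complexes. Its knockout libraries held 50.9 and 41.6 CPM in experiment 1 and 51.5 and 44.9 CPM in experiment 2, for guides 1 and 2. Its control libraries held 58.3 and 57.5 CPM in experiment 1 and 67.9 and 67.3 CPM in experiment 2. The groups did not overlap, the 2 guide 2 knockouts were the lowest libraries, and the 2 controls of experiment 2 were the highest. Such complete separation towards lower values held for 1 of the 8 genes and for 0.376% of all genes, and separation towards higher values for 0 of the 8 and 0.302% of all genes. The log2 fold change of VPS11 was -0.41 (SE 0.11), while the middle 90% of all genes lay between -0.31 and 0.26 with a median of -0.00.

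VPS16 is the core subunit that holds VPS33A in the complex. It stood at 35.7 and 28.1 CPM with ZRSR2 guides 1 and 2 in experiment 1, and at 32.4 and 29.8 CPM in experiment 2. The non-targeting libraries held 39.5 and 44.4 CPM in experiment 1 and 42.4 and 35.6 CPM in experiment 2. The groups overlapped at 1 point, where the lowest control, guide 2 of experiment 2, lay just below the highest knockout, guide 1 of experiment 1. Within each experiment, both knockouts were below both controls. The share of all genes with this order was not computed, so nothing is read from it. The log2 fold change was -0.36 (SE 0.11). Both readable intron starts of VPS16, of 23, differ from the U12-type start at 4 positions. Part of VPS16 lies over other genes on GRCh38: 2549 bases are shared with PTPRA on the same strand and 488 with PCED1A on the opposite strand. The log2 fold changes of the neighbours were 0.02 for PTPRA and -0.04 for PCED1A. How reads were split between them is not given in the sources used here.

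The remaining core subunits, VPS18 and VPS33A, were spread mainly by experiment. VPS18, the second RING-domain scaffold, held 73.1, 66.7, 48.2 and 51.6 CPM in the knockout libraries, in the order guide 1 and guide 2 of experiment 1, then of experiment 2. In the same order its controls held 67.9, 70.0, 52.6 and 40.9 CPM. VPS33A, the Sec1/Munc18 protein that binds SNAREs, held 38.4, 41.1, 36.7 and 31.8 CPM in the knockout and 39.7, 39.6, 32.7 and 28.1 CPM in the controls. Knockout and control libraries of these genes overlapped. Their log2 fold changes of 0.05 (SE 0.20) for VPS18 and 0.08 (SE 0.14) for VPS33A were smaller than their errors, which include the shift between experiments. With the experiment as a block in edgeR, they were 0.0551 (SE 0.0847) for VPS18 and 0.0875 (SE 0.0845) for VPS33A, the latter about the size of its error.

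The HOPS-specific subunits bind the GTPases of late endosomes and lysosomes, and neither was lower in the knockout. VPS39 was 105.6 ± 2.05 CPM in the knockout, with libraries from 103.1 to 108 CPM, and 105 ± 7.18 CPM in the controls, from 96.0 to 111.4 CPM. VPS41 was 78.9 ± 1.82 CPM in the knockout, from 76.6 to 80.9 CPM, and 77.5 ± 6.87 CPM in the controls, from 69.4 to 86.2 CPM. For both genes all knockout libraries lay inside the range of the controls.

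The CORVET-specific subunits bind RAB5 on early endosomes. VPS8 was 33.9 ± 0.394 CPM in the knockout and 34.0 ± 2.64 CPM in the controls, the narrowest difference of the 8 genes at a log2 fold change of -0.00 (SE 0.09). TGFBRAP1, the human counterpart of yeast Vps3, was 134.1 ± 23.6 CPM in the knockout and 124.8 ± 21.9 CPM in the controls. Its wide spread came with the experiment, since its libraries held 141.7 to 155.8 CPM in experiment 1 and 99.97 to 121.4 CPM in experiment 2.

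**Figure D2:**
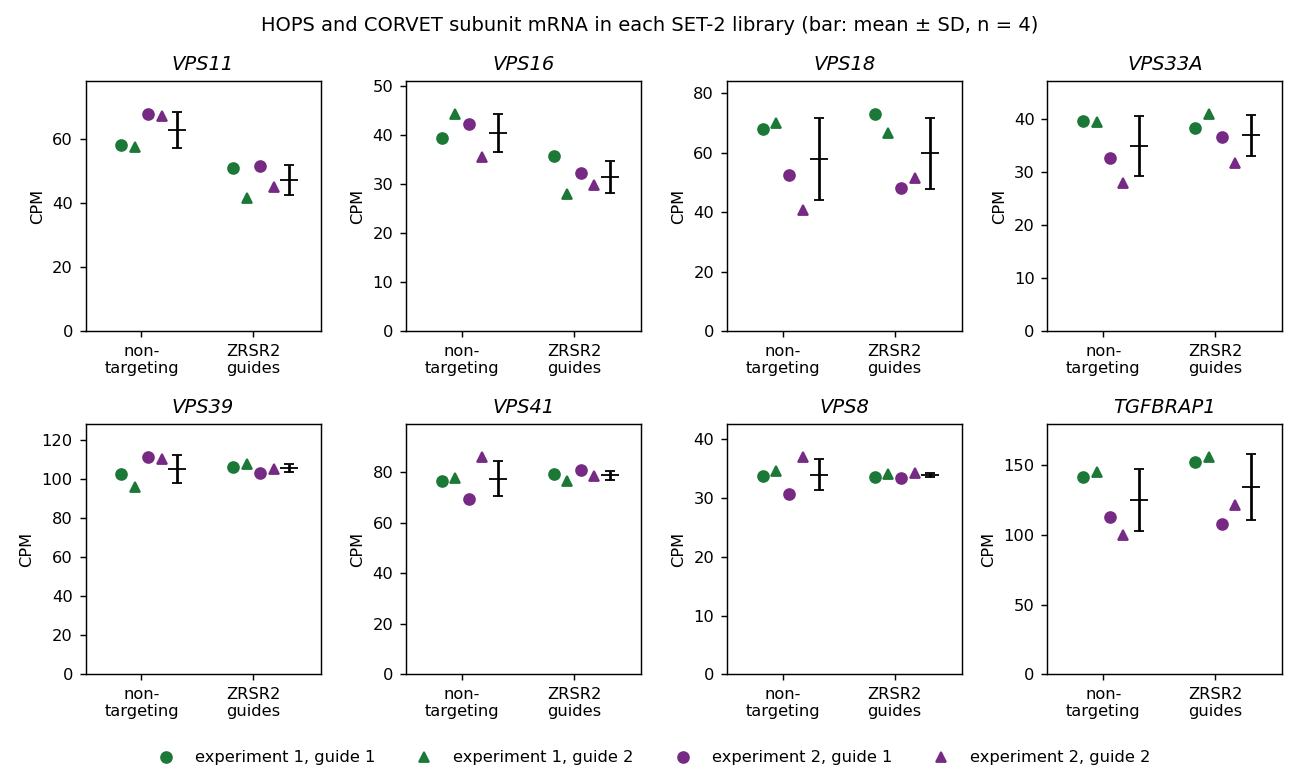
Level of each subunit mRNA in CPM (linear axis from 0) in every library, with the mean and SD of the 4 libraries a group as a bar beside the points; colours mark the experiment and shapes the guide. VPS11 separates by genotype (41.6 to 51.5 against 57.5 to 67.9 CPM), whereas VPS18, VPS33A and TGFBRAP1 separate by experiment.

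Markers of other lineages were read beside this difference. Of 8 erythroid genes, 8 were lower in the knockout, with a median log2 fold change of -0.19. Of all genes, 51.3% were lower, with a median of -0.00. Among the erythroid genes 0 separated the groups, against 0.376% of all genes towards lower and 0.302% towards higher values. The summed level of the erythroid genes was 1487 to 1724 CPM in the knockout and 1609 to 2380 CPM in the controls. Their part in the lower VPS11 and VPS16 was not tested. The megakaryoblast label was matched by ITGA2B at 2085 to 2708 CPM and GATA1 at 241 to 305.5 CPM, although PF4 was at most 3.03 CPM and GP1BB was listed at 0 in all 8 libraries. The 10 megakaryoblast markers summed to 3218 to 3814 CPM in the knockout and 3264 to 4128 CPM in the controls. Of the 9 tested, 6 were lower in the knockout, with a median log2 fold change of -0.07. Of other blood lineages, 0 of 5 T cell, 2 of 6 monocyte and 3 of 5 B cell markers passed the count filter. LYZ stood at 206 to 267 CPM while FCN1 was at 0 in all libraries, and CD79A at 10.3 to 51.1 CPM and CD79B at 17.4 to 26.6 CPM while MS4A1 was at 0. The summed monocyte markers were 206.5 to 241.5 CPM in the knockout and 220.1 to 267.2 CPM in the controls, and the summed B cell markers 31.6 to 64.6 and 36.1 to 76.4 CPM. The deepest library, non-targeting guide 1 of experiment 2 with 71521173 counts, is a control with high VPS11, and without it the log2 fold changes of VPS11 and VPS16 kept the negative sign they had in all 14 alternatives.

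Within each experiment, VPS11 was a smaller share of the shared core's mRNA in the knockout. It made up 25.7% and 23.5% of the summed CPM of the 4 core genes in the knockout libraries of experiment 1, against 28.4% and 27.2% in the controls. In experiment 2 the shares were 30.5% and 28.4% in the knockout and 34.7% and 39.2% in the controls. Across experiments the groups overlapped. Against single partners, the ratio of VPS11 to VPS39 was 0.386 to 0.500 in the knockout and 0.569 to 0.611 in the controls, and its ratio to VPS41 was 0.543 to 0.640 against 0.739 to 0.978. The ratios to VPS33A and VPS8 also separated the groups. The ratio to VPS16, in contrast, was 1.5 ± 0.070 in the knockout and 1.57 ± 0.251 in the controls with overlapping libraries, since both genes were lower. Ratios to VPS18 and TGFBRAP1 overlapped as well. VPS11 was selected on its lower level in the knockout and separated the groups by itself. Its shares, and its ratios to partners near their control levels, therefore restate that choice in part and are a description only.

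**Figure D3:**
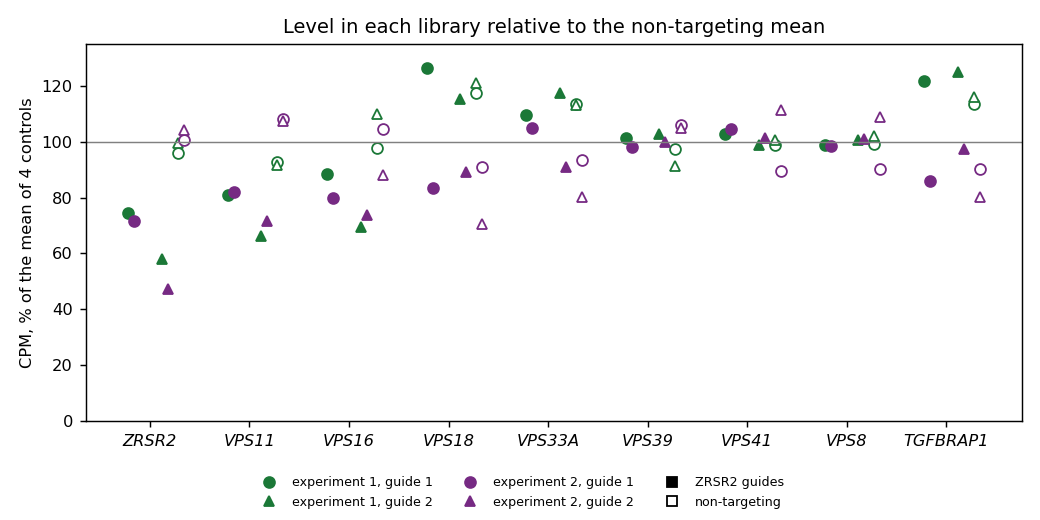
Level of ZRSR2 and the 8 subunit mRNAs in each library as a percentage of the mean of the 4 non-targeting libraries (filled points, ZRSR2 guides; open points, non-targeting guides; colours, experiment; shapes, guide). ZRSR2, VPS11 and VPS16 lie below the line with both ZRSR2 guides, and the other genes lie on both sides of it or near it.

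The guides differed in how low ZRSR2, VPS11 and VPS16 were. With guide 1, ZRSR2 was at 73.1% of control, VPS11 at 81.6% and VPS16 at 84.1% (means of 2 libraries). With guide 2 the same genes were at 52.7%, 68.9% and 71.5%. The order was therefore the same for all 3 genes. Against both non-targeting guides, the log2 fold changes of VPS11 were -0.29 (SE 0.14) for guide 1 and -0.54 (SE 0.14) for guide 2, and those of VPS16 were -0.25 (SE 0.15) and -0.48 (SE 0.15). These comparisons share their 4 controls and are given side by side only.

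The difference between the ZRSR2 guides does not take in the control levels and was tested directly. The controls did enter its estimate of spread, since all 8 libraries shared 1 fit. VPS11 was lower with guide 2 than with guide 1 by a log2 fold change of -0.24 (SE 0.16), and this did not pass edgeR's quasi-likelihood test (adjusted p = 1). VPS16 gave -0.23 (SE 0.17) with an adjusted p of 1, and the other 6 subunits lay between -0.05 and 0.10. In this comparison edgeR called 0 of the 8 genes and 0% of all genes, with 0 of 8 and 0.181% at an unadjusted p of 0.05, and DESeq2 called 0 genes. ZRSR2 itself gave -0.47 (SE 0.16, adjusted p = 1). With the experiment as a block, the SE was smaller, and edgeR again called 0 genes. That fit gave -0.24 (SE 0.12) for VPS11, -0.23 (SE 0.14) for VPS16 and -0.47 (SE 0.14) for ZRSR2. With 2 libraries a guide, neither fit separated the guides for either subunit, which does not show that the guides act alike.

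The non-targeting guides served as the background for that comparison. VPS11 differed by -0.02 (SE 0.16) and VPS16 by -0.03 (SE 0.17) between them on the log2 scale. The widest values of the 8 genes were -0.12 for VPS18 and 0.17 for VPS41. edgeR called 0 of 8 and 0% of all genes here, with 0 of 8 and 0.0873% at an unadjusted p of 0.05, and DESeq2 called 0 genes.

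Across the 8 libraries, VPS11 and VPS16 mRNA followed ZRSR2 mRNA. After subtracting each experiment's mean, Pearson's r in log2 CPM was 0.98 for VPS11 with ZRSR2 and 0.86 for VPS16 with ZRSR2 (n = 8 libraries). The libraries share guides and controls and fall into genotype groups, so these values describe the pattern and carry no p. VPS11 was selected on its lower level in these knockout libraries, so its high r with ZRSR2 follows in part from that choice. VPS39 gave -0.03 with ZRSR2, VPS8 -0.04 and VPS41 -0.05.

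**Figure D4:**
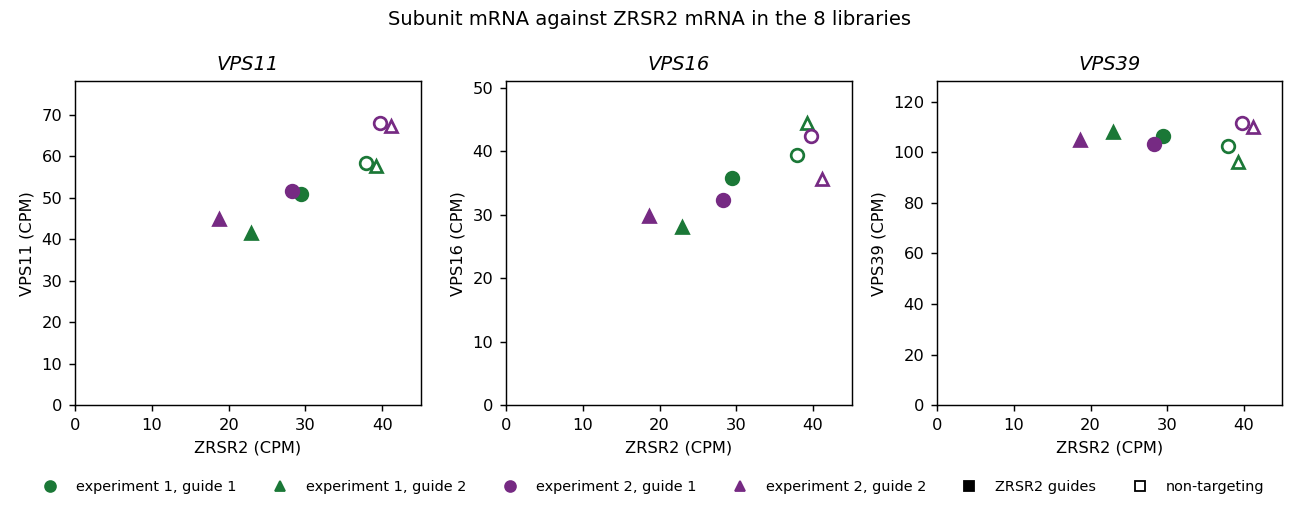
CPM of VPS11, VPS16 and VPS39 (vertical axes) against CPM of ZRSR2 (horizontal axes) in the 8 libraries, with filled points for ZRSR2 guides and open points for non-targeting guides. VPS11 and VPS16 are lowest in the 2 guide 2 knockout libraries, which also hold the least ZRSR2, whereas VPS39 stays between 96.0 and 111.4 CPM over the whole range of ZRSR2.

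The genes most like VPS11 in pattern were found among 11014 genes with a mean of at least 5 CPM, by the same r over 8 libraries. This r holds in part the genotype difference on which VPS11 was selected, so the rank of ZRSR2 is a description only. ZRSR2 ranked 1st with 0.98, followed by GPAA1 with 0.972, PIH1D1 with 0.971, ITGB4 with 0.971 and SLC44A2 with 0.966. GPAA1, a subunit of the GPI transamidase, was 67.5 ± 8.79 CPM in the knockout and 90.2 ± 6.65 CPM in the controls. Its log2 fold change in the knockout was -0.42 (SE 0.11). The values were -0.15 (SE 0.11) for PIH1D1, -0.28 (SE 0.43) for ITGB4 and -0.48 (SE 0.25) for SLC44A2. Relative to these SEs, PIH1D1, ITGB4 and SLC44A2 differed less clearly by genotype than GPAA1. The SEs come from the fit on genotype alone, so they include the shift between experiments that r leaves out. VPS16 ranked 66th with 0.894. Among the other subunits, r with VPS11 ran from -0.723 for TGFBRAP1 to 0.018 for VPS39. The highest r within the complexes was 0.917, for VPS41 of HOPS and VPS8 of CORVET. It rested mainly on the non-targeting libraries of experiment 2, with VPS41 at 69.4 and 86.2 CPM and VPS8 at 30.6 and 37.0 CPM. Between the ZRSR2 guides the pair moved in opposite directions in both experiments, with VPS41 lower and VPS8 higher under guide 2.

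The knockout difference was then compared between experiments. In experiment 1 the log2 fold changes were -0.33 (SE 0.12) for VPS11 and -0.40 (SE 0.15) for VPS16, and in experiment 2 they were -0.49 (SE 0.12) and -0.33 (SE 0.14). The other 6 subunits lay between -0.01 and 0.11 in experiment 1 and between -0.09 and 0.17 in experiment 2. Both genes were thus lower at both times. The difference between experiments was -0.16 (SE 0.17) for VPS11 and 0.07 (SE 0.20) for VPS16, with an adjusted p of 1.00 for each of the 8 genes by edgeR. edgeR called 0 of 8 and 0% of all genes for this difference, with 0 of 8 and 1.66% at an unadjusted p of 0.05, and DESeq2 called 0 genes.

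Experiment 2 had lower levels of 3 of the 8 subunits than experiment 1, and higher levels of 0. This comparison played no part in choosing the genes, and edgeR called 58.2% of all genes in it, 28.6% lower and 29.6% higher, so 3 of 8 is near the background. DESeq2 also called 3 of 8, against 56.6% of all genes. The cause of this broad shift between experiments was not tested. VPS18 fell from 69.4 ± 2.83 to 48.3 ± 5.31 CPM (SD, n = 4 each), or -0.52 on the log2 scale (SE 0.09, edgeR adjusted p = 0.000579). TGFBRAP1 fell from 148.6 ± 6.48 to 110.4 ± 9.03 CPM, at -0.43 (SE 0.07, edgeR adjusted p = 0.000513). VPS33A fell from 39.7 ± 1.12 to 32.3 ± 3.55 CPM, at -0.30 (SE 0.09, edgeR adjusted p = 0.0125). For all 3 genes every library of experiment 2 was below every library of experiment 1, a separation that 28% of all genes also showed in this direction.

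The other 5 subunits were not called between experiments. VPS11 differed by 0.14 (SE 0.09, edgeR adjusted p = 0.175) and VPS16 by -0.07 (SE 0.10, edgeR adjusted p = 0.579). VPS39, VPS41 and VPS8 lay between -0.01 and 0.06, with edgeR adjusted p-values of 0.457, 0.848 and 0.936.

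**Figure D5:**
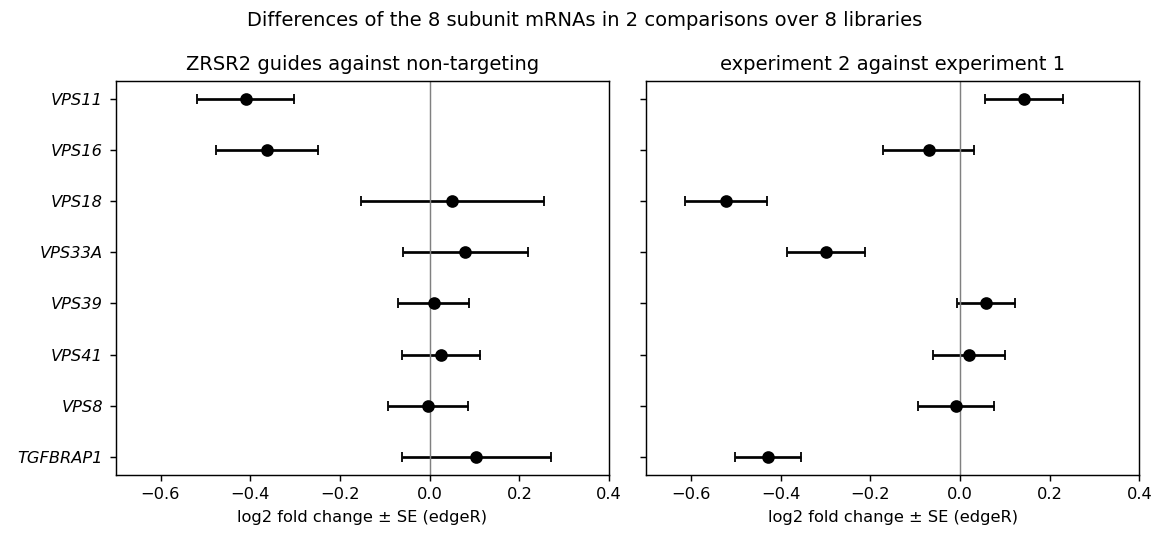
Log2 fold change with its standard error (edgeR) for each subunit, for ZRSR2 guides against non-targeting guides on the left and for experiment 2 against experiment 1 on the right. VPS11 (-0.41) and VPS16 (-0.36) lie left of 0 on the left, and VPS18 (-0.52), TGFBRAP1 (-0.43) and VPS33A (-0.30) lie left of 0 on the right.

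Levels of different genes were compared as CPM per kb of the principal transcript. Over all 8 libraries VPS39 (21.7 ± 1.01 CPM per kb) and TGFBRAP1 (21.7 ± 3.62) were highest and did not differ beyond their spread. They were followed by VPS11 (16.6 ± 2.90), VPS18 (15.1 ± 3.07), VPS41 (13.2 ± 0.799) and VPS16 (13.1 ± 2.12), whose neighbours in this order overlapped. VPS33A (7.85 ± 1.01) and VPS8 (6.83 ± 0.351) were the lowest. The mRNA of the core was therefore not present in equal amounts per length, and VPS33A had the lowest mean of the core subunits. By group means, VPS11 stood above VPS18 in the controls, at 18.9 ± 1.70 against 14.9 ± 3.52 CPM per kb, and below it in the knockout, at 14.3 ± 1.44 against 15.4 ± 3.06. The libraries of these genes overlapped in the controls (17.37 to 20.5 against 10.5 to 17.96) and in the knockout (12.56 to 15.55 against 12.38 to 18.78). VPS18 was spread mainly by experiment, so this order of means did not hold in every library. These ranks rest on annotated lengths, and the authors' transcript lengths were not used here.

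None of the listed genes of the wider endolysosomal pathway was called by genotype, where edgeR called 0% of all genes. Of 168 listed genes outside the 8 subunits, 161 were tested, and edgeR called 0 in the knockout. At an unadjusted p of 0.05 it took in 0, against 0.597% of all genes. None separated the groups, against 0.376% of all genes towards lower and 0.302% towards higher values. With shares this low, nothing is read from these counts about the pathway. Of the 161 genes, 87 were lower and the median log2 fold change was -0.01, beside -0.00 for all genes. The pair VPS33B and VIPAS39, which resembles VPS33A and VPS16, had log2 fold changes of -0.02 (SE 0.12) and -0.05 (SE 0.17).

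Between experiments the same 161 genes moved in both directions, with 64 higher, 44 lower and 53 not called, where 29.6% of all genes were called higher and 28.6% lower. Their median log2 fold change was 0.06 beside 0.00 for all genes. The counts for single lists that follow stand against the same shares and were not tested against them. VPS33B rose from 27.6 ± 1.12 to 32.5 ± 0.601 CPM (edgeR adjusted p = 0.0212) and VIPAS39 rose from 40.8 ± 3.09 to 52.6 ± 6.18 CPM (edgeR adjusted p = 0.00464). Their log2 fold changes of 0.24 and 0.37 are opposite in sign to the -0.30 of VPS33A, the counterpart of VPS33B in HOPS and CORVET.

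Upstream of the tethers, 7 of 18 Rab and Arl GTPases and exchange factors rose in experiment 2 and 6 fell, where 29.6% of all genes rose and 28.6% fell. MON1A, part of the exchange factor that activates RAB7, fell from 30.8 ± 2.90 to 15.4 ± 3.35 CPM, and RIN1, an exchange factor for RAB5, fell from 11.2 ± 1.2 to 3.47 ± 0.911 CPM (edgeR adjusted p = 0.00015 and 2.6e-05). Among 10 effectors and adaptors, 4 rose and 4 fell. PLEKHM2, which links ARL8 on lysosomes to kinesin, rose with a log2 fold change of 0.71, and EEA1, the RAB5-binding tether of early endosomes, fell with -0.60. Of 13 SNAREs of this route, 6 rose and 4 fell, with VAMP4 at 0.64 and VTI1A at -0.66.

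Subunits of the other tethering complexes were also called between experiments, where 58.2% of all genes were. Of the 8 COG subunits, which tether at the Golgi, 6 rose and 2 fell, led by COG6 at 0.80. Of the 8 exocyst subunits, 2 rose and 3 fell, with EXOC7 at -0.86. Of 4 tested GARP and EARP subunits, 2 rose and 1, VPS53 at -0.46, fell. Each of these 3 complexes thus had subunits called in both directions.

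Genes of downstream compartments were called in both directions too, beside 29.6% of all genes higher and 28.6% lower. Of 22 lysosomal membrane and hydrolase genes, 12 rose and 5 fell, with GAA (alpha-glucosidase) at a log2 fold change of 1.05. Of 16 vacuolar ATPase subunits, 3 rose and 2 fell, with ATP6V0D1 at -0.75. Of 22 granule genes of platelets and related organelles, 8 rose and 5 fell. RAB38 and DTNBP1 fell with -0.88 and -0.81, and LYST rose with 0.58.

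Genes with a U12-type start were set beside VPS11. An exact ATATCCTT or GTATCCTT start was read in 150 genes, of which 133 were tested, and 79 of these (59.4%) had a negative log2 fold change in the knockout, with a median of -0.03. Among 9721 tested genes with any readable start, 52.1% were negative and the median was -0.01. VPS11 was selected on its start and on its lower knockout level, so its ranks here restate that choice. It was the 8th lowest of the 133. Of the 36 tested genes with ATATCCTT, VPS11 was 2nd lowest after CACNA2D3, which was at a mean of 1.39 CPM. An exact start was thus not always accompanied by a lower level. Among 147 listed pathway and subunit genes with a readable start, it was found in 2, VPS11 and VAC14. VAC14, the scaffold of the PIKfyve lipid kinase, had a log2 fold change of 0.01 (SE 0.19) at a mean of 61.1 CPM. The table counts reads per gene, so retention of these introns was not analysed here.

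The promoters were searched for CACGTG, the core of the element bound by TFEB, a regulator of lysosomal genes. CACGTG reads the same on both strands. RefSeq windows on GRCh38.p14, from 250 bases before to 50 bases after a start, were given for 6 of the 8 genes, all but VPS18 and VPS33A. CACGTG occurred in 4 of the 6, VPS11, VPS16, VPS8 and TGFBRAP1, or in 5 of the 8 windows of the 6 genes, since VPS11 and VPS8 have more than 1 window. It occurred in 7.26% of the 35116 windows in the table. The sites are shown for VPS11 and VPS16, which were lower in the knockout, and for TGFBRAP1, which was not, with CACGTG in capitals and 10 bases on each side, on the gene's strand.
VPS11, chr11:119067752-119067777: agctgccgacCACGTGattcgctggc
VPS11, chr11:119067774-119067799: tggctcagctCACGTGacaaagctcc
VPS16, chr20:2840669-2840694: gcggcctcgcCACGTGacccggacgg
TGFBRAP1, chr2:105329723-105329748: gcggccgcccCACGTGacgggaagcg
Positions are counted from the RefSeq starts, which lie inside the GENCODE genes given above. The first base of the motif lay at -56 and -34 from the VPS11 start at 119067818, at -66 from the VPS16 start at 2840745 and at -3 from the TGFBRAP1 start at 105329735. The second VPS11 window, with a start at 119068013, holds only the latter VPS11 site, at -229. The VPS11 and TGFBRAP1 sites therefore lie inside the GENCODE genes, after their annotated starts. The windows of VPS39 and VPS41 held none. A match describes letters in a window and shows no binding.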

How the data were processed

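Bulk RNA-seq of 8 SET-2 libraries was used. The authors deposited 1 table of RSEM expected counts per gene symbol, in which every value was already whole. The submitters' processing notes name cutadapt 1.11, RSEM 1.2.30 and hg19; the aligner, annotation and strand setting are not given in the sources used here. All 8 columns matched a sample title, and 0 other columns were left out. Genes were kept by filterByExpr on genotype and tested with edgeR 4.0.16 (R 4.3.3, TMM, quasi-likelihood F test, Benjamini-Hochberg adjustment over 14898 genes, threshold 0.05). DESeq2 1.42.0, other size factors, other count filters, the experiment as a block and leaving out each library were the alternatives. The fits were tested on simulated counts with the same relative spread for every gene. The simulated knockout comparison held no shift between experiments, unlike these data. That test therefore does not show how the knockout fit performs here. CPM used TMM library sizes, and log2 CPM a prior count of 2. Depth gave the precision of low genes only, since 1 count was worth at most 0.0324 CPM.

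The experiment number pairs libraries, since the labels give each biological replicate its own day. Deviations from the group means correlated at 0.678 to 0.846 within an experiment (8 pairs) and at -0.816 to -0.709 between experiments. The members and lists were chosen with earlier results of these data known. All 8 subunits and ZRSR2 are named in each comparison; from each other list, at most 3 called genes with the largest change and at least 5 CPM; and the 5 genes most like VPS11. GENCODE 29 and RefSeq supplied lengths, introns and promoters (6 of 8 genes matched). Some genes that this rule names are not reported here.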

Additional observations from a re-analysis of the deposited data

Results flagged for a closer look

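One library stood apart in depth. Non-targeting guide 1 of experiment 2 held 71520000 counts, against 31110000 to 36540000 in the other 3 controls, a gap larger than expected for 4 values. Of 36 groups of 4 libraries examined, 1 stood out, where chance alone gives about 1.8.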

How the results depend on the processing

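Over 22 results and 291 alternatives, 282 stayed the same by a rule set for each kind of result. Fold changes between experiments had to keep their sign and their side of the threshold. Counts of called genes had to stay within a set factor of the main count, or at 0. Knockout fold changes and VPS11's share had to move by less than their SD within genotypes, whatever their sign or call. VPS11 stayed the same by this rule although DESeq2 with the replicate block called it. So did VPS18, at -0.06 without ZRSR2 guide 1 of experiment 1 against 0.05. In the knockout comparison DESeq2 called 4 genes and DESeq2 with the replicate block 31, where edgeR called 0. With the replicate block, edgeR again called 0 genes for the knockout (690 at an unadjusted p of 0.05), 0 between the ZRSR2 guides and 0 between the non-targeting guides, so the block changed no edgeR call. Without a count filter 5 genes were called for the difference of the knockout effect between experiments. The cause of these shifts was not tested.

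Leaving out 1 library at a time gave 0 knockout calls each time (47 to 141 at an unadjusted p of 0.05), 7178 to 9193 calls between experiments, and 0 for the difference of effects and for either pair of guides. The log2 fold change ran from -0.45 to -0.35 for VPS11 and from -0.43 to -0.31 for VPS16 in the knockout, and between experiments from -0.62 to -0.44 for VPS18, from -0.47 to -0.38 for TGFBRAP1 and from -0.35 to -0.25 for VPS33A, whose adjusted p reached 0.048. It ran from -0.1536 to 0.0218 for VPS16, from -0.0663 to 0.0968 for VPS41 and from -0.084 to 0.0596 for VPS8 between experiments. The difference in VPS11's share of the core ran from -7.07 to -3.08 percentage points.

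Values near 0 between experiments, none of them called, changed sign. VPS8 was 0.0014 with at least 10 counts in every library, 0.0025 without non-targeting guide 2 of experiment 1, 0.0044 without ZRSR2 guide 1 of experiment 2 and 0.0596 without non-targeting guide 1 of experiment 2. VPS16 was 0.0218 without ZRSR2 guide 1 of experiment 1, and VPS41 was -0.0663 without non-targeting guide 2 of experiment 2. The 4 libraries a group, all from 1 cell line, limit what differences could be detected.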
